A study of Cynodon dactylon with 6 samples.

Results

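In leaves of bermudagrass (Cynodon dactylon), 200 unigenes of the 111743 measured stood lower after 2 h at 42 °C than before heat and higher than before heat after 12 h. They were chosen by their normalised read counts, in which each library is divided by a median-of-ratios size factor. A member had a 12 h mean of at least 80, a 2 h mean at least 1.5 times below the control mean and a 12 h mean at least 1.5 times above it, each mean taken with 1 added. All 3 group means therefore went into the choice, and the dip and the rise of the members are described here without a test. All 200 members also passed the abundance filter of the test described further on, through the 12 h level that the choice demands.

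High temperature unfolds proteins and disturbs membranes, and heat shock transcription factors are known to turn on chaperone genes soon after its onset. In the same early phase many other transcripts are known to be held back, by lower transcription and by faster decay, before a slower acclimation phase sets in. A transcript that is lower early and higher late belongs to neither simple class, the early induced nor the steadily repressed. No gene name or sequence could be attached to the unigenes, so no function is given to any member, and no marker of leaf or of another tissue could be checked.

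The study used seedlings 10 days old of the genotype labelled WT, with leaves taken from unheated controls labelled 0 h, from seedlings heated for 2 h and from seedlings heated for 12 h, 2 libraries per group. The labels give no separate plants or pools for the replicates, so the spread between them may be technical. Unheated seedlings sampled at 2 h or 12 h are not analysed here, so time of day, age and duration of heat cannot be told apart. The libraries held between 6313500 and 9326725 assigned reads. In such bulk leaf samples, fewer cells of a type and less RNA per cell cannot be told apart either.

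Among unigenes raised at 12 h, an early dip was the least common course. Of 3725 unigenes with a 12 h mean of at least 80 and at least 1.5 times the control, 2049 (55.0%) stayed within 1.5 times of the control at 2 h and 1476 (39.6%) were already at least 1.5 times higher. The 200 members were 5.37% of them. Seen from the other side, 1694 unigenes with the same 12 h level had dipped by 1.5 times or more at 2 h. Of these, 886 (52.3%) were still at least 1.5 times below the control at 12 h, 608 (35.9%) were within the limits and the 200 members (11.8%) had passed above it.

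**Figure D1:**
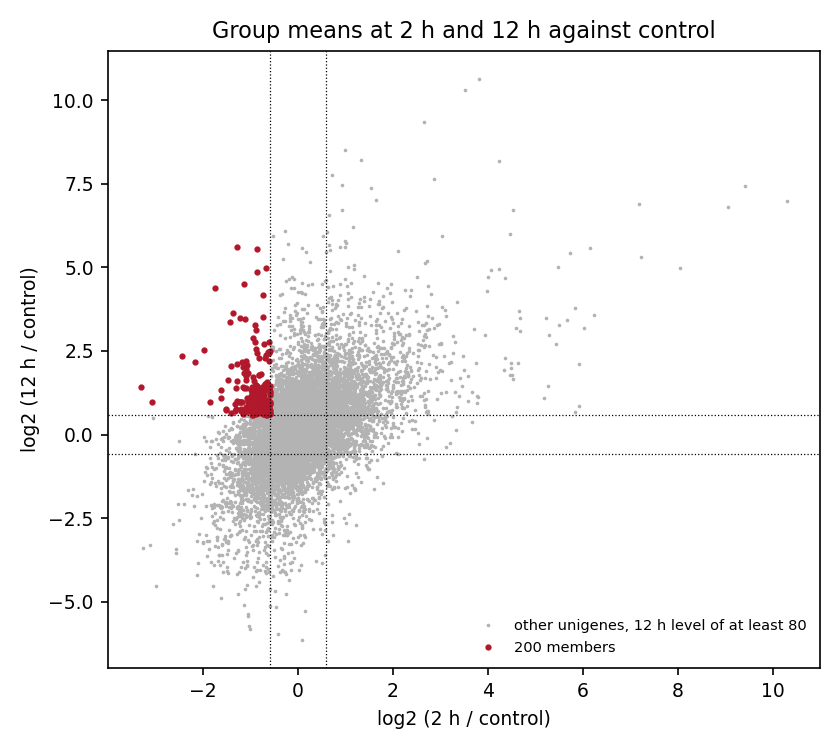
Log2 ratio of the 2 h mean to the control mean (x axis) and of the 12 h mean to the control mean (y axis), from normalised counts with 1 added, for the 11876 unigenes with a 12 h level of at least 80. The 200 members (red) fill the upper left corner cut out by the dotted lines at 1.5-fold, and other unigenes (grey) lie up against both of its edges.

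The members form no separate cluster, and many lie close to the limits that define them. Of the 200, 59 dipped by less than 1.65 times and 35 stood less than 1.65 times above the control at 12 h, that is within 10% of a limit. The member with the smallest dip was 1.503 times below the control at 2 h, and the nearest unigene that missed only this limit was 1.499 times below it. At 12 h the nearest member stood 1.51 times above the control and the nearest unigene left out 1.499 times. The lowest 12 h level of a member was 80.2 and the highest one left out was 79.99.

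The typical member stood a little less than 2 times below the control at 2 h and a little more than 2 times above it at 12 h. The median over members of the mean normalised count was 94.3 before heat, 50.4 at 2 h and 234 at 12 h. The median member stood 1.83 times below the control at 2 h (quartiles 1.62 and 2.11) and 2.06 times above it at 12 h (quartiles 1.73 and 2.85). Between the heated groups the median step was 3.997 times (quartiles 3.17 and 6.16). By library, the median member had 102.5 and 91.9 normalised counts before heat, 54.7 and 48.2 after 2 h, and 235 and 232 after 12 h. The replicates of each group gave nearly the same median. The 3 groups were far apart in it, which follows from the choice of the members.

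**Figure D2:**
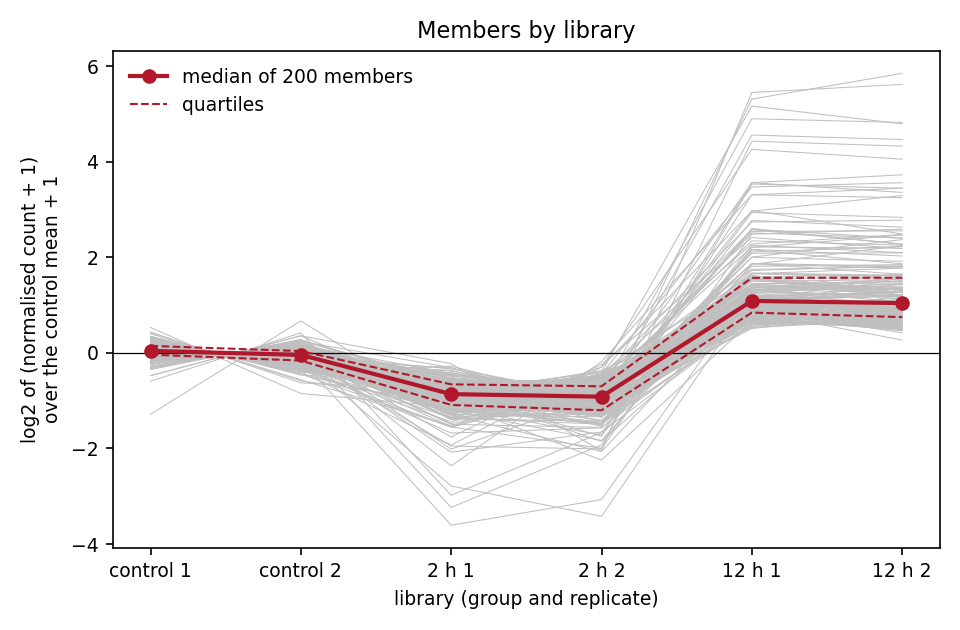
Log2 of each member's normalised count plus 1 over its control mean plus 1, in each of the 6 libraries (grey lines, 1 per member), with the median (red points) and quartiles (dashed). The median lies below 0 in both 2 h libraries and near 1 in both 12 h libraries, and the largest values at 12 h exceed 5. The values are those that chose the members.

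The members together took up a small part of the leaf RNA before heat and several times more after 12 h. They held 0.458% and 0.419% of the assigned reads in the 2 control libraries, 0.228% and 0.236% after 2 h, and 1.54% and 1.49% after 12 h. The group means were 0.439% ± 0.0280, 0.232% ± 0.00562 and 1.52% ± 0.0320 (SD, n = 2 each). The groups did not overlap, but the members were chosen on these same libraries for this order. A share of reads depends on the library total: the 12 h share was 3.46 times the control share, while the members' summed normalised counts, at 91363 against 39614, were 2.31 times the control. No single transcript carried this share. The most abundant member gave 3.86% to 5.15% of the members' reads in a library, and 26 to 30 members together gave 50% of them.

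Per unit of length the members moved up the leaf transcriptome. The median member stood at 9.69 FPKM before heat, 5.50 after 2 h and 32.3 after 12 h, where FPKM are the authors' values scaled to unigene length and library total. Over all unigenes with the same 12 h level the median also went up, from 16.5 FPKM before heat and 17.2 after 2 h to 26.8 after 12 h, while their median normalised count was 219, 231 and 232. Ranked by mean FPKM over all unigenes, 45 members were among the 5000 most abundant before heat, 22 after 2 h and 94 after 12 h. Among the 1000 most abundant they numbered 2, 0 and 36. The choice asks for a fall at 2 h and a rise at 12 h, so the order of these counts follows from it.

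The dip and the rise differed widely in size from member to member. At 2 h, 138 members stood between 1.5 and 2 times below the control, 58 between 2 and 4 times and 4 more than 4 times below. At 12 h, 91 stood between 1.5 and 2 times above the control, 73 between 2 and 4 times, 22 between 4 and 8 times and 14 more than 8 times. The 91 members with a rise below 2 times held 63.8% of the members' reads in the controls and 48.2% after 12 h, whereas the 14 with the largest rise went from 1.26% to 8.26%. In 35 members both the dip and the rise were at least 2 times.

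The 14 members raised by more than 8 times were mostly rare before heat. Their control means ran from 1.44 to 154 normalised counts with a median of 17.1, and their 12 h means from 112 to 1741 with a median of 346. All 14 were called higher at 12 h by the edgeR test described further on, which called 27.6% of all unigenes tested and 35.1% of those with the same 12 h level. Many of their dips rested on few reads: their 2 h means had a median of 7.2 normalised counts and ran up to 65.9. In 5 of the 14 a 2 h library overlapped a control library, and 5 of the 14 were called lower at 2 h, against 14.4% and 20.3%.

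Unigene c92246_g1 had the largest rise among the members whose libraries did not overlap. Its normalised counts were 42.4 and 50.3 before heat, 22.4 and 34.8 after 2 h, and 1696 and 1310.3 after 12 h. Both 2 h libraries lay below both controls, and both 12 h libraries lay more than an order of magnitude above. The fitted log2 fold change was -0.66 ± 0.26 at 2 h and 4.999 ± 0.20 at 12 h (SE from the edgeR fit). This unigene was not among those called lower at 2 h, and without heat 2 h replicate 1 its value there was -0.39. It was not chosen in every case with 1 library left out.

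Unigene c90342_g1 had the next largest rise. It stood at 18.8 and 11.5 normalised counts before heat, 7.64 and 8.12 after 2 h, and 481 and 456 after 12 h. The 12 h libraries were close to each other and far above all others, while the controls differed from each other by more than the lower of them differed from the 2 h libraries. Its log2 fold change was -0.98 ± 0.37 at 2 h, also not called, and 4.86 ± 0.21 at 12 h (SE). Without control replicate 1 the 2 h value was -0.55, and this unigene too was not chosen in every case with 1 library left out.

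Unigene c94139_g1 had the deepest dip. It fell from 404 and 332 normalised counts in the controls to 29.3 and 42.9 after 2 h, and reached 923 and 1051 after 12 h. The 3 groups did not overlap, and the 2 h mean lay 9.94 times below the control mean and 26.6 times below the 12 h mean. The log2 fold change was -3.34 ± 0.19 at 2 h and 1.39 ± 0.14 at 12 h (SE).

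Unigene c73383_g1 combined a deep dip with a high level. It had 1819 and 1579 normalised counts before heat, 246 and 158 after 2 h, and 3836 and 2853 after 12 h. This put it 8.38 times below the control at 2 h and 1.97 times above it at 12 h, with log2 fold changes of -3.08 ± 0.24 and 0.95 ± 0.21 (SE). The 12 h value was 1.56 with library totals, and without control replicate 2 it was 0.86 and no longer called. Per length it reached 328 and 257 FPKM, against 108 and 92.9 FPKM in the controls and 14.8 and 9.92 after 2 h.

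**Figure D3:**
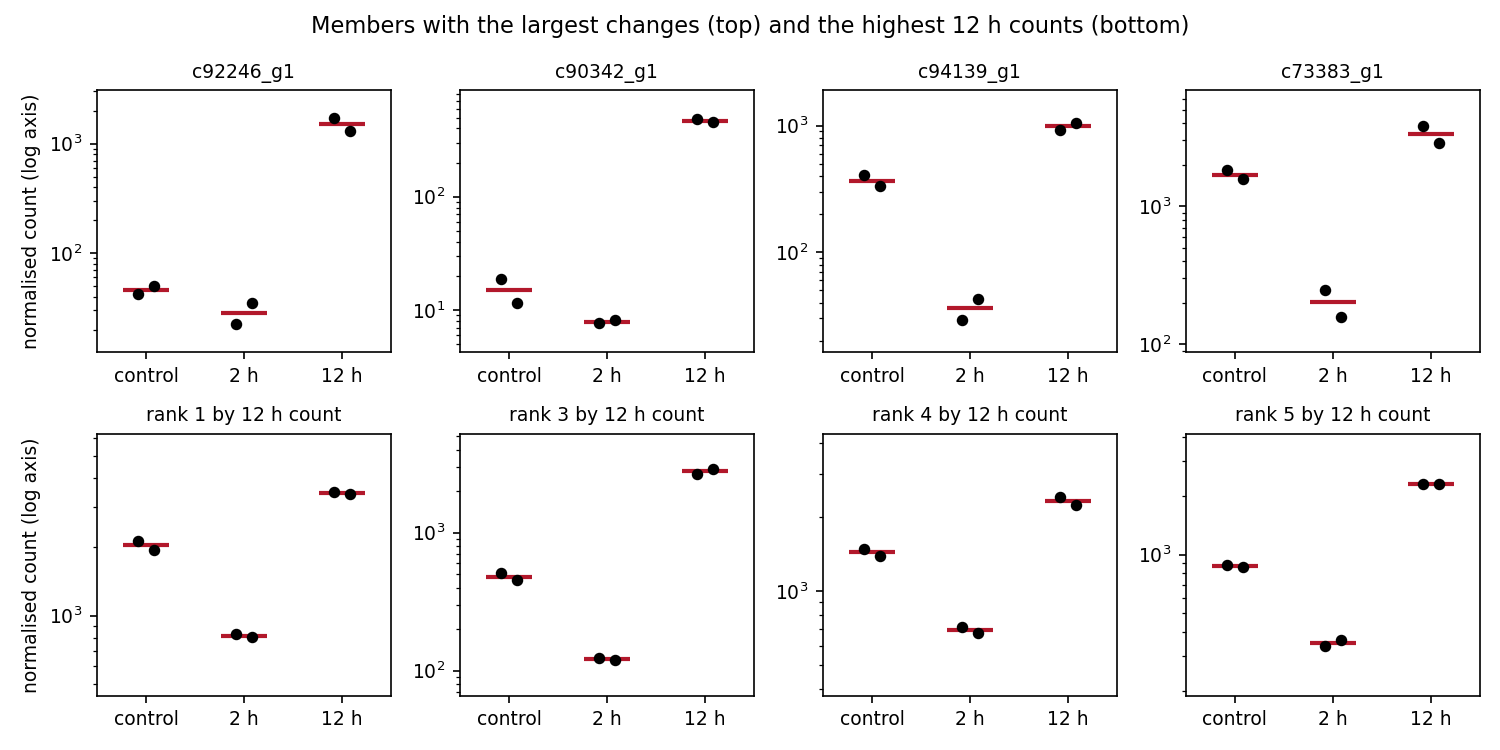
Normalised counts on a log axis in each library (black points) with the group mean (red bars), for the 4 members named by ID (top row) and for the members ranked 1, 3, 4 and 5 by 12 h count (bottom row). Rank 2 is c73383_g1. In all 8 panels both 2 h points lie below both control points and both 12 h points lie above them.

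The 5 members with the highest 12 h counts had clear dips, and their rises ran from 1.62 to 5.80 times. The first of them had 2124 and 1939 normalised counts before heat, 832 and 803 after 2 h, and 3474 and 3424 after 12 h. The next after c73383_g1 had 509 and 451 counts before heat, 123 and 118 after 2 h, and 2689 and 2890.4 after 12 h. The member ranked 4 had 1487 and 1390.4, then 713 and 675, then 2418 and 2246. The member ranked 5 had 881 and 865, then 339.9 and 364, then 2306 and 2295. In all 5 the 3 groups stood apart, and in all but c73383_g1 the replicates lay close together. The replicates of c73383_g1 differed more, at 246 and 158 after 2 h and 3836 and 2853 after 12 h.

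Ranked per length instead, the highest member at 12 h was a short unigene. It stood at 133 and 118 FPKM before heat, 79.96 and 81.2 after 2 h, and 398 and 344 after 12 h. The next had 93.7 and 105 FPKM, then 62.7 and 66.6, then 352 and 347. Their lengths, as count and FPKM imply them, were 545 and 534 bases.

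At the other end, 14 members had fewer than 10 reads in each 2 h library, and 181 had at least 10 reads in every library. One member had no read in either 2 h library, 2 control reads in all and 348 reads after 12 h. Its 12 h mean stood 48.6 times above the control with 1 added to each mean, as elsewhere here. From its summed reads, scaled by the size factors and without the added 1, the ratio was 102. The exact 95% counting interval of that ratio ran from 27.9 to 843 and covers counting error only. Its dip rests on those 2 control reads.

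Most members kept both directions in every library. In 192 of the 200 both 2 h libraries lay below both controls, against 36.7% of the 11876 unigenes with the same 12 h level. Both 12 h libraries lay above both controls in 199 members, against 48.8% of those unigenes, and above both 2 h libraries in all 200, against 44.6%. Both conditions on the controls held together in 191 members, against 9.83%. Since the means chose the members, these counts describe how often the replicates lay on the same side, and no more is read from them.

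The edgeR quasi-likelihood test, run over all 25828 unigenes that passed the abundance filter, was applied to the members as a description. At a Benjamini-Hochberg adjusted p below 0.05, 162 members were called lower at 2 h, where 14.4% of all unigenes tested and 20.3% of those with the same 12 h level were called lower. At 12 h, 197 members were called higher than the control, against 27.6% and 35.1%. All 200 were called higher at 12 h than at 2 h, against 22.9% and 30.9%. These comparisons share libraries with each other and with the choice of members, so nothing is read from the counts. On simulated data with known changes, the share of false calls was above the nominal level in all 3 comparisons, so the calls may be less strict than their threshold. Each comparison was simulated only 1 time, and far fewer unigenes were changed in the simulation than were called here. The size of that excess therefore cannot be carried over. Without control replicate 1 the number called lower at 2 h was 94, and without heat 2 h replicate 2 it was 103.

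The 38 members not called at 2 h differed from the others more in level than in dip. Their median control count was 36.8, against 123 in the 162 that were called. Their median dip was 1.69 times, against 1.87 times. The 3 members not called at 12 h included 1 with a high level and unlike controls. It had 1037 and 496 normalised counts before heat, 439 and 576 after 2 h, and 2355 and 1832 after 12 h, so that one 2 h library lay above one control.

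Scaling of the libraries moved the size of the rise more than that of the dip. The members' median log2 fold change at 2 h was -0.89 with trimmed-mean scaling, -0.91 with DESeq2's size factors and -0.86 with library totals. At 12 h it was 1.02, 0.95 and 1.63. The median of all unigenes tested moved by about as much, from 0.12 to 0.06 and 0.73, and the share of calls at 12 h that were higher went from 53.1% to 80.4% with library totals. Between 12 h and 2 h that share went from 50.1% to 80.2%. Relative to the median of all unigenes the members stood at 0.89 on the log2 scale in each of the 3 scalings. With library totals 466 unigenes met the limits in place of 200, of which 182 were members.

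Which unigenes met the limits depended on every library. With 1 library left out in turn, between 189 and 257 unigenes were chosen, and between 150 and 192 of the 200 members were among them. Without control replicate 1 it was 150, and without control replicate 2 it was 160. Only 94 members were chosen in all 6 of these cases. They included 32 of the 35 with a dip and a rise of at least 2 times, 36 of the 91 with a rise below 2 times and 6 of the 14 with a rise above 8 times.

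A library left out of the choice gives a value that the choice did not use. It is set here against group means that the choice did use. Without control replicate 1, 190 unigenes were chosen, and in 184 of them (96.8%) this control lay above the 2 h mean and below the 12 h mean, as it did in 19.4% of all unigenes with the same 12 h level. In 121 (63.7%) it also met both 1.5-fold limits, against 1.74%. Control replicate 2, left out in its turn, lay between the heated means in 95.7%, against 19.0% of all, and met both limits in 58.5%, against 1.60%. The left-out 2 h libraries lay below the control mean in 91.6% and 90.3% of the unigenes chosen without them, against 49.4% and 49.8% of all, and met the limit in 59.4% and 55.3%, against 14.7% and 15.8%. The left-out 12 h libraries lay above the control mean in 99.5% and 98.2%, against 56.9% and 55.95% of all whose remaining 12 h library met the level, and met the limit in 92.6% and 80%, against 30.8% and 30.6%. The libraries of the other groups were used in each choice. For a left-out control, the choice had already set the 12 h mean well above the 2 h mean. For a left-out 2 h or 12 h library, it had already used the control mean. The unigenes compared were taken by their 12 h level alone, with no such condition. The differences from them therefore follow in part from the choice, to an extent that was not tested. The shares are given without a test.

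**Figure D4:**
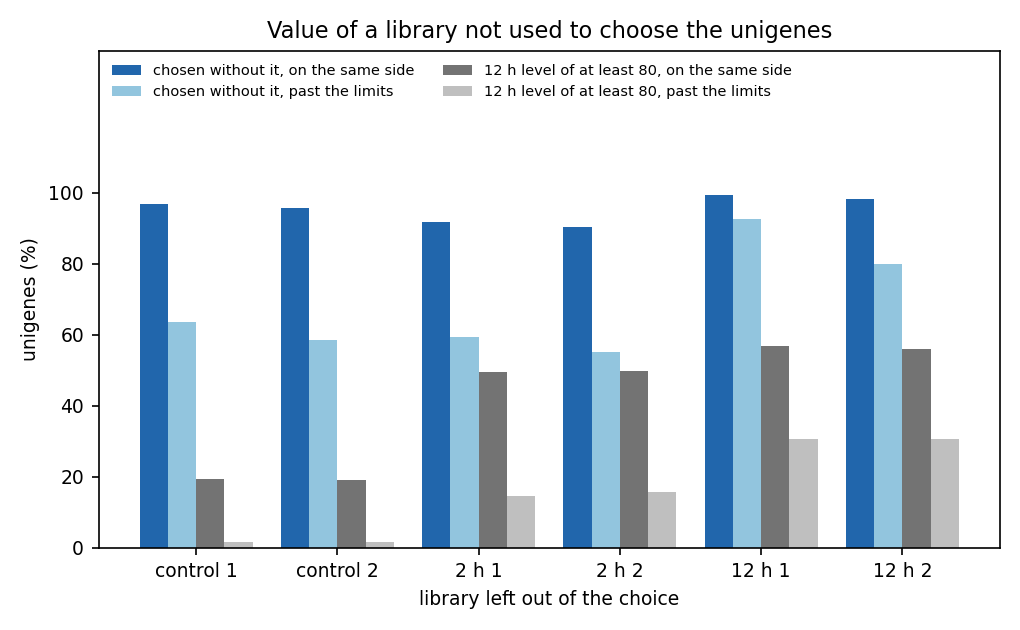
Percentage of unigenes in which a library left out of the choice lay on the side of the other groups that the rule asks for, or met the 1.5-fold limits, for unigenes chosen without it (blue) and for all unigenes with a 12 h level of at least 80 (grey). The dark blue bars stand between 90.3% and 99.5%, and the light blue bars are lower for the control and 2 h libraries than for the 12 h libraries. The grey unigenes were taken by level alone, so the distance between blue and grey follows in part from the choice.

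The median coefficient of variation between the replicates of a group, over the members' normalised counts, was 10.9% in the controls and 14.1% after 2 h, against 6.70% and 8.12% in all unigenes with the same 12 h level. After 12 h it was 6.72% against 7.17%. In the unigenes already higher at 2 h and raised at 12 h it was 12.7% before heat, 11.5% after 2 h and 11.7% after 12 h. In those raised at 12 h but within the limits at 2 h it was 8.77%, 9.21% and 7.07%. The latter had median normalised counts of 91.9 before heat, 100 after 2 h and 203 after 12 h. Beside all unigenes with the same 12 h level, the members were less abundant in the first 2 groups. Their median normalised counts there were 94.3 and 50.4 against 219 and 231, and in the last group 234 against 232. The part of this level in the variation was not tested.

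The members had a lower median length than the unigenes that share their rise or their dip. Count and FPKM together imply a unigene length, a measure the choice did not use directly, although a limit on counts favours long unigenes. Its median was 1218 bases for the members (quartiles 841 and 1992). For the unigenes raised at 12 h and within the limits at 2 h it was 1554 bases, for those already higher at 2 h 1365, and for those lower at 2 h and back within the limits at 12 h 1518. Over all unigenes with the same 12 h level it was 1512 bases. Within the members it was 1871 bases for the 14 with the largest rise, whose lengths ran from 224 to 6094. It was 1186 for the 22 raised 4 to 8 times, 1254 for the 73 raised 2 to 4 times and 1169 for the 91 with a rise below 2 times. No test was made of these lengths, and the quartile ranges overlap.

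**Figure D5:**
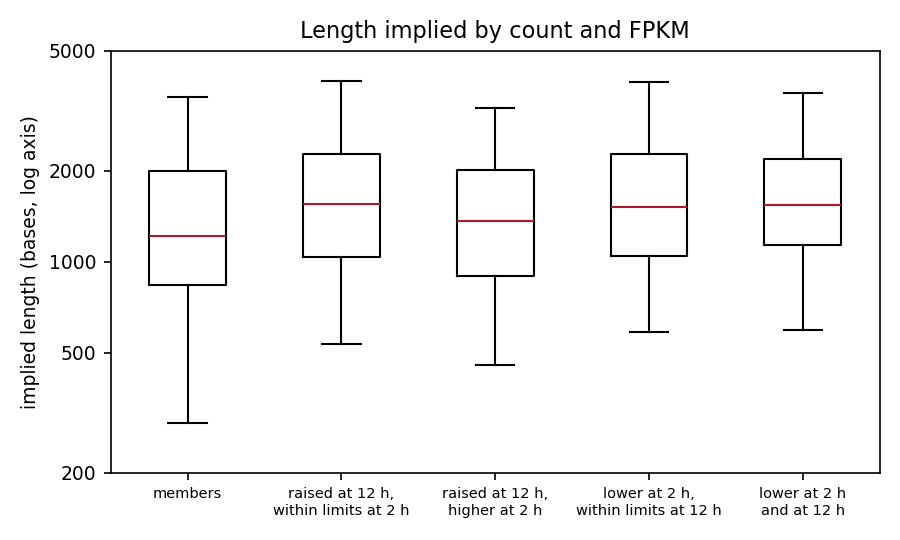
Unigene length in bases implied by count and FPKM, on a log axis, for the members and for the unigenes that share their 12 h rise or their 2 h dip. Boxes give the quartiles, red lines the median and whiskers the 5% and 95% points; the members' median of 1218 bases is the lowest of the 5, and all boxes overlap.

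Some members share the first part of their ID, which is read here as a component, a group of assembled sequences related to each other. The assembler is not given in the sources used here, so this reading comes from the form of the IDs. The 200 members lay in 195 components, and 80 of them (40%) shared a component with another unigene, against 37.3% of all unigenes with the same 12 h level. In 4 components more than 1 unigene was a member, 9 members in all. One of these components held 3 members. At 2 h they stood between 2.0825 and 3.10 times below the control, and at 12 h between 2.51 and 3.58 times above it. Another held 2 members of unlike dip, 3.95 and 1.54 times, with rises of 5.80 and 4.60 times. Unigenes of a component may share reads, so such members are not independent.

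The other unigenes of these components, which the rule had passed over, had medians on the same side of the control as the members. Of 116 such unigenes, 64 were abundant enough to be tested. Their median log2 ratio to the control was -0.42 at 2 h (quartiles -0.66 and -0.04) and 0.53 at 12 h (quartiles -0.24 and 1.19). Not every one shared the dip. Beside the members with the largest rises, from the largest down, they stood at 0.93, 0.67, -0.29, 0.52, 0.0, -0.14 and -0.59 at 2 h. The value of 0.67 is that of the other unigene in the component of c92246_g1, which stood at 4.88 at 12 h. By the edgeR test 16 of the 64 (25%) were called lower and 1 (1.56%) higher at 2 h. The shares were 12.6% and 13.4% over all 11160 tested unigenes in shared components that are not members, these 64 included. At 12 h 26 (40.6%) were called higher and 13 (20.3%) lower, against 25.8% and 23.4%. Of the 64, 6 were called both lower at 2 h and higher at 12 h. The share called both ways over all tested unigenes in shared components was not counted, so nothing is read from this number. The part of shared reads in these values was not tested.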

How the data were processed

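Leaf RNA of 6 samples was sequenced. The authors deposited estimated counts per unigene, not normalised between libraries, and FPKM values, which divide by length and by depth. The submitters' processing notes list DESeq 1.18.0, HTSeq 0.6.1, TopHat2 2.0.12 and Bowtie2 2.2.3 without roles; the sources used here do not give the assembler, the counter or strandedness. Among nonzero deposited counts 99.3% were whole, the rest carrying decimals. The deposited count sheet is named for tall fescue, but its column names match these samples.

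Size factors were medians of ratios over 18038 unigenes with at least 10 reads in all libraries. Estimated counts were rounded for edgeR 4.0.16 (R 4.3.3; filterByExpr with minimum count 10 and total 15, TMM, robust glmQLFit on all 6 libraries with 3 residual degrees of freedom, glmQLFTest). p-values were Benjamini-Hochberg adjusted over 25828 unigenes. Standard errors are the log2 fold change over the square root of F. The fit was tested on simulated data, where median fold changes were recovered, many 2-fold changes were missed and false calls exceeded the nominal rate. DESeq2 1.42.0 was an alternative. The test had been planned for counts and was run on rounded estimated counts. Left-out libraries kept the size factors of all 6. Implied lengths used counts of at least 20 reads.

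The members, tests and alternatives were chosen with earlier results of these data known. IDs were printed for the 2 members with the largest rise and the 2 with the deepest dip among those without overlap between libraries, since the files pair no ID with a name. Other members are given by rank or were picked as examples after their values were seen.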

Additional observations from a re-analysis of the deposited data

How the results depend on the processing

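The number of members, 200, became 466 with library totals, 1550 with no limit on the 12 h level and 35 with a fold limit of 2, which narrows the choice by construction. It lay between 134 and 289 under the other 8 settings (other size factors, pseudocounts of 0.5 and 5, 12 h levels of 40 and 160, no overlap, FPKM) and between 189 and 257 with 1 library left out. The 162 members called lower at 2 h were 118 with DESeq2 and between 94 and 160 with 1 library left out. The 197 called higher at 12 h were 162 with DESeq2 and between 171 and 197, and the 200 called higher at 12 h than at 2 h were 199 or 200 throughout. No member was called in the opposite direction under any setting. In the sign of the estimate at 2 h, 198 members kept their direction without control replicate 1 and 199 without control replicate 2. The members' median implied length, 1218 bases, was 1239.8 with at least 100 reads behind a length, a setting chosen after the data were seen. Where a library is left out, its group has 1 library, which is assumed to vary like the others.

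Over all unigenes, the 3719 called lower at 2 h were 2055 without control replicate 1 and 2210 without heat 2 h replicate 2. The 7132 called higher at 12 h were 13467 with library totals. The 5913 called higher at 12 h than at 2 h were 12366 with library totals and 3669 with DESeq2. The cause of these differences was not tested. Of the log2 fold changes of the 4 members named by ID, c73383_g1 at 12 h was no longer called without control replicate 2 (0.86, edgeR adjusted p = 0.0576) and c92246_g1 at 2 h was called without heat 12 h replicate 2 (-0.66, edgeR adjusted p = 0.0475). The other 142 of 144 values kept their direction and their side of the threshold.

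Replicate numbers are shared between the groups, but nothing says that they mark a shared batch. Deviations of same-numbered libraries correlated at 0.01 to 0.29 between groups, across unigenes. With the replicate block 171 members were called lower at 2 h, 199 higher at 12 h and 199 higher at 12 h than at 2 h, where 4193, 7781 and 6476 of all 25828 unigenes were called.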
